A study of Rattus norvegicus with 8 samples.

Results

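Genes of the brain's blood vessels were followed in the striatum: 45 genes chosen by symbol for their role in endothelial cells, the blood-brain barrier, pericytes or vascular smooth muscle. The choice was made with earlier results of these data known, so counts over the genes are a description and not an independent test. Of these 45, 43 had a row among the 17337 genes counted, and 42 passed the low-count filter that left 12014 genes for testing. Slco1a4 and Ptprb were not analysed here under those symbols, and Ly6c was too low to test, with at most 4 reads in any rat. The libraries came from 8 male wild-type (WT) Sprague-Dawley rats, 4 of which had self-administered methamphetamine (METH, a psychostimulant) and 4 saline. METH was available at 0.05 mg/kg per infusion in sessions of 2 h per day for 16 days, and saline on the same schedule. All rats of both groups had first been trained to press a lever for food and carried a jugular catheter, and ketamine and xylazine were given before the striatum was taken. The labels number the rats from 1 to 4 within each group.

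The endothelial cells of brain capillaries form the blood-brain barrier. Tight junctions seal the gaps between them, carriers bring in glucose, amino acids, hormones and iron, and efflux pumps return drugs and lipophilic compounds to the blood. Pericytes lie on the capillary wall and help to keep the barrier closed, while contractile smooth muscle cells wrap the arterioles and set blood flow. Vessels are a small fraction of striatal tissue, so these transcripts report on a minority of its cells.

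Some of the genes described below, all with METH rats below the saline rats, had a promoter in RefSeq (rat assembly GRCr8): the receptor Tie1, the transcription factor Erg and the junction protein Ocln. Erg belongs to the ETS family, which binds a GGAA core, so the sequences are shown with each match to GGAAG or its reverse complement CTTCC in capitals. Cores with a base other than G after GGAA were not searched and stay in lower case. They are the 250 bases before the start site, 5′ to 3′ in the direction of transcription.
Tie1, chr5:137304982-137305231, minus strand: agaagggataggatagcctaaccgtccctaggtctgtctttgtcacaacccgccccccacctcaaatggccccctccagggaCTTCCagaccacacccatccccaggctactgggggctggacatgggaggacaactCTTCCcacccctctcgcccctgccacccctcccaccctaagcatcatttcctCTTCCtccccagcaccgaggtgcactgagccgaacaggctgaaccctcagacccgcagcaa
Erg, chr11:48251567-48251816, minus strand: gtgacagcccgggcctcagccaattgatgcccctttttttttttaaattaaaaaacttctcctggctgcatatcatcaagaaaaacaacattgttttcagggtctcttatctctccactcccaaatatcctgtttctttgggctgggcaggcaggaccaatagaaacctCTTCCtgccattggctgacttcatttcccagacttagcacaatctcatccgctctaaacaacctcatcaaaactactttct
Ocln, chr2:33441199-33441448, minus strand: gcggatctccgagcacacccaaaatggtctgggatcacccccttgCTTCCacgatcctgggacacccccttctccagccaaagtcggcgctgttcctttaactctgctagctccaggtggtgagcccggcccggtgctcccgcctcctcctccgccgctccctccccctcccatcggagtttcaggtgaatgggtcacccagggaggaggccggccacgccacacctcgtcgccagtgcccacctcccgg
The Tie1 promoter held 3 matches, beginning 168, 113 and 61 bases before the start, the Erg promoter 1 match at 81 bases and the Ocln promoter 1 match at 205 bases. These letters are common, since 63.3% of all 27457 promoters of the same length held at least 1 match on either strand. Among the members, 30 of 45 had a promoter in the table and 20 of those 30 held a match, which leaves too many members without a sequence to compare the group with other genes. A match is a run of letters and was not tested as a binding site.

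The total count was between 18135939 and 20832550 in the saline rats and between 18520038 and 21211920 in the METH rats, and 3 reads corresponded to between 0.142 and 0.169 CPM, which are counts adjusted for the depth of each library. Defining vascular genes were detected in every rat, among them Cldn5, Pecam1, Slc2a1, Pdgfrb and Acta2. Saline rat 2 stood apart. It had the highest level of the 4 saline rats in 34 of the 42 tested members and the highest of all 8 rats in 27, and the lowest in none. Relative to the mean of the saline rats, the median member in saline rat 2 was at 0.25 on the log2 scale, against -0.11, -0.12 and 0.01 in saline rats 1, 3 and 4 and between -0.21 and -0.07 in the METH rats, while the median of all genes stayed within 0.01 of 0 in each rat. Its summed erythrocyte markers, mostly haemoglobin Hbb, were also the highest, at 257 CPM against 134 to 167 CPM in the other saline rats and 127 to 242 CPM in the METH rats. Whether blood or vessel content of the piece of tissue differed in this rat was not tested, and values without it are given beside those with it for each tested member, singly or as a range.

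**Figure D1:**
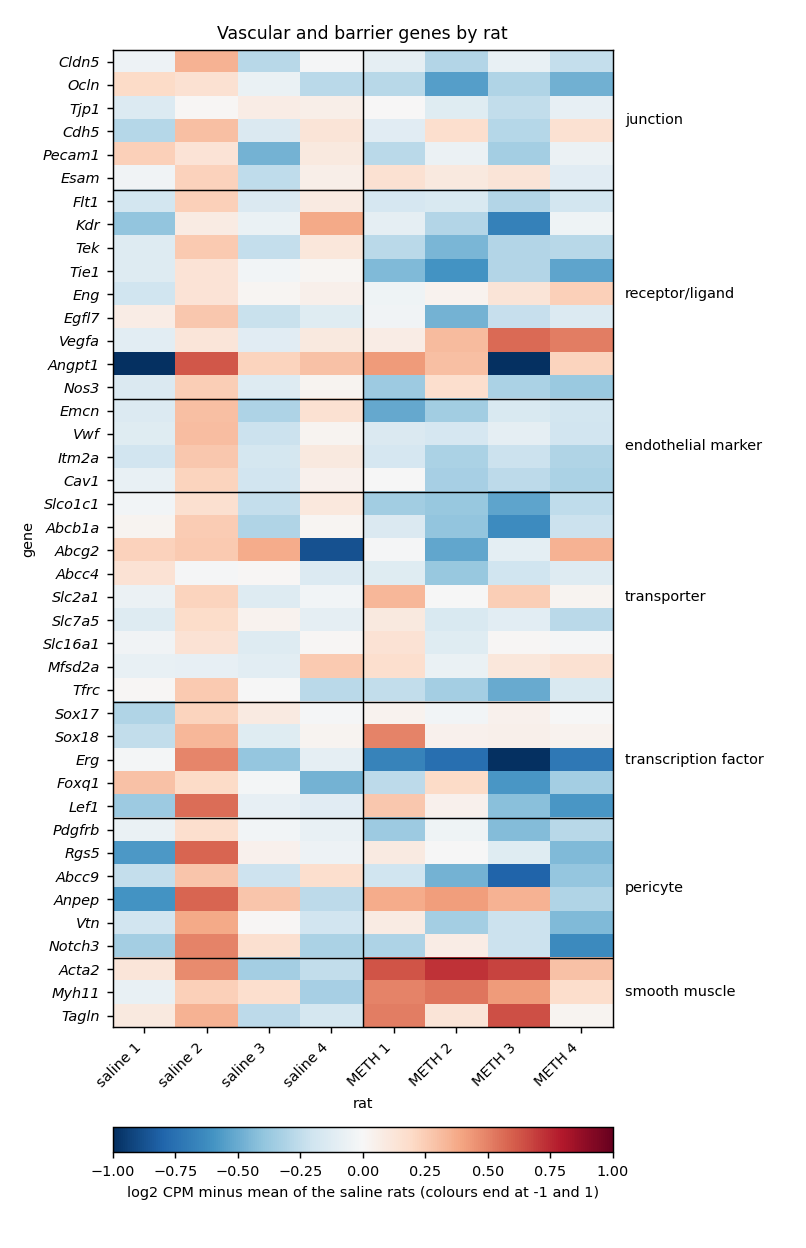
Level of the 42 tested genes (rows, grouped by role) in each of the 8 rats (columns), as log2 CPM minus the mean of the saline rats, with blue below and red above that mean and colours ending at -1 and 1. The column of saline rat 2 is red in most rows, the smooth muscle rows are red in the METH rats, and the Tie1, Ocln, Slco1c1 and Erg rows are blue in all 4 METH rats.

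The vascular and barrier genes had a lower median level in METH rats, with overlap between single rats, while no single member passed the test. Relative to the mean of the saline rats, the median member was at -0.07 in METH rat 1 and at -0.11 and -0.12 in saline rats 1 and 3. The pooled SD of this median between rats of a group was 0.13 (log2). The difference between the groups was tested with edgeR (quasi-likelihood F-test), and a gene was called at a false discovery rate (FDR, Benjamini-Hochberg over all 12014 genes) below 0.05 with a mean log2 CPM above 1. No member was called, against 0.516% of all genes tested (62 genes). The exact test and likelihood ratio test of edgeR and the Wald test of DESeq2 each called 3 members (Tie1, Slco1c1 and Erg, all lower), and limma-voom called 1 (Tie1). Those first 3 tests also called more of all genes than the 62 above, up to 191. Their member counts are therefore not read against the 0.516%. At an unadjusted p below 0.05, 11 of the 42 members were lower in METH rats (26.2%, against 4.88% of all genes) and 3 were higher (7.14%, against 6.26%). The levels of METH and saline rats did not overlap in 5 members, all lower in METH (11.9% of members, against 2.65% of all genes), and in 0 members with METH higher (against 3.75%). The log2 fold change was below 0 in 31 of 42 members (73.8%, against 51.4% of all genes), with a median of -0.19 against -0.01 for all genes. In bulk tissue, fewer cells of a type and less RNA per cell cannot be told apart. Without saline rat 2 the picture was more even: 5 members were lower and 5 higher at an unadjusted p below 0.05 (11.9% each, against 4.57% and 5.77% of 12090 genes), 26 of 42 were below 0, and the median was -0.10. That rat was singled out by its high level in these same members, so leaving it out moves them upwards by construction. Leaving out saline rat 3 moved them the other way, with 17 members lower at that level and a median of -0.24.

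**Figure D2:**
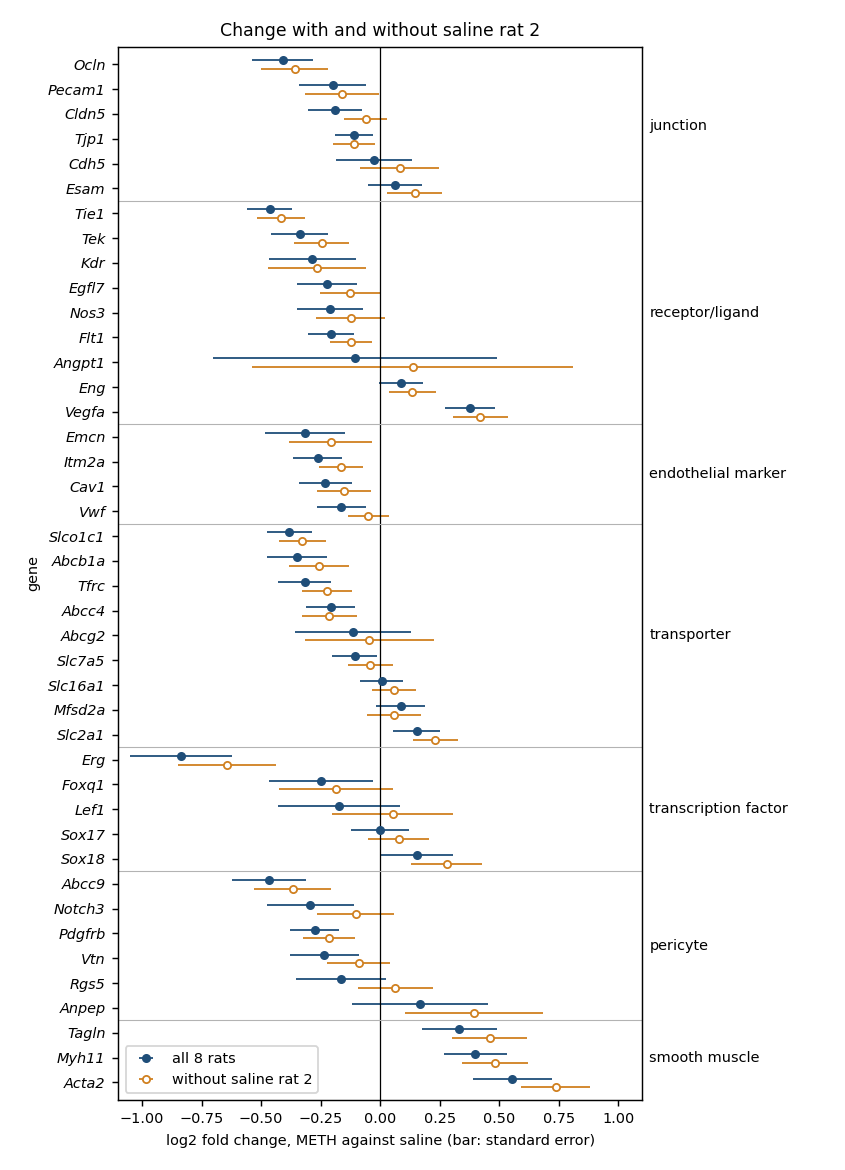
Log2 fold change of METH against saline for each tested gene, grouped by role, with its standard error as a bar, for all 8 rats (filled blue points) and without saline rat 2 (open orange points). Most endothelial and pericyte points lie left of 0 and move towards 0 without saline rat 2, while Acta2, Myh11, Tagln and Vegfa lie right of 0 in both.

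Among receptors and ligands, the pair of endothelial receptor tyrosine kinases Tie1 and Tek, which bind or modulate angiopoietin signals that keep vessels quiet, were both lower in every METH rat than in every saline rat. Tie1 stood at 43.0, 51.8, 46.4 and 47.7 CPM in saline rats 1 to 4 and at 34.7, 31.1, 38.5 and 32.7 CPM in METH rats 1 to 4. The means were 47.2 ± 3.65 and 34.2 ± 3.17 CPM (SD, n = 4 each). The log2 fold change of Tie1 was -0.47 (SE 0.09, edgeR quasi-likelihood FDR 0.0502), just above the threshold. The FDR of Tie1 lay between 0.00140 and 0.239 over the alternatives tried. Without saline rat 2 the Tie1 log2 fold change was -0.42 (FDR 0.176).

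Tek, the angiopoietin receptor, was at 26.7, 35.1, 24.8 and 31.7 CPM in the saline rats and at 24.2, 21.3, 23.9 and 24.2 CPM in the METH rats. The groups did not overlap, though saline rat 3 and the highest METH rat lay less than 1 CPM apart, and the log2 fold change was -0.34 (SE 0.12, edgeR quasi-likelihood FDR 0.309). Without saline rat 2 it was -0.25. Angpt1, a ligand of Tek, was near the detection limit, with a mean of 0.540 CPM in saline and 0.499 CPM in METH rats and a log2 fold change of -0.11 that turned to 0.14 without saline rat 2. The receptors of VEGF had lower means in METH rats: Flt1 was at 122, 164, 125 and 148 CPM in saline and at 123, 125, 113 and 122 CPM in METH rats (log2 fold change -0.21, SE 0.10, edgeR quasi-likelihood FDR 0.441, and -0.12 without saline rat 2). Kdr, the main signalling receptor for VEGF, was at 10.3, 14.3, 12.9 and 17.6 CPM in saline and at 12.7, 11.04, 8.42 and 13.1 CPM in METH rats, so that the groups overlapped (log2 fold change -0.28, SE 0.18, and -0.27 without saline rat 2).

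Vegfa itself, the growth factor these receptors bind, had the opposite sign. It was at 130, 152, 129 and 149 CPM in the saline rats and at 147, 174, 207 and 199 CPM in the METH rats. METH rats 2, 3 and 4 were above every saline rat and METH rat 1 lay within the saline range, with a log2 fold change of 0.38 (SE 0.11, edgeR quasi-likelihood FDR 0.200) and of 0.42 without saline rat 2. Vegfa is made largely outside the endothelium, by glia and neurons. The other receptors and ligands, Eng, Egfl7 and Nos3, overlapped between groups, with log2 fold changes from -0.22 to 0.09, or from -0.13 to 0.13 without saline rat 2.

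**Figure D3:**
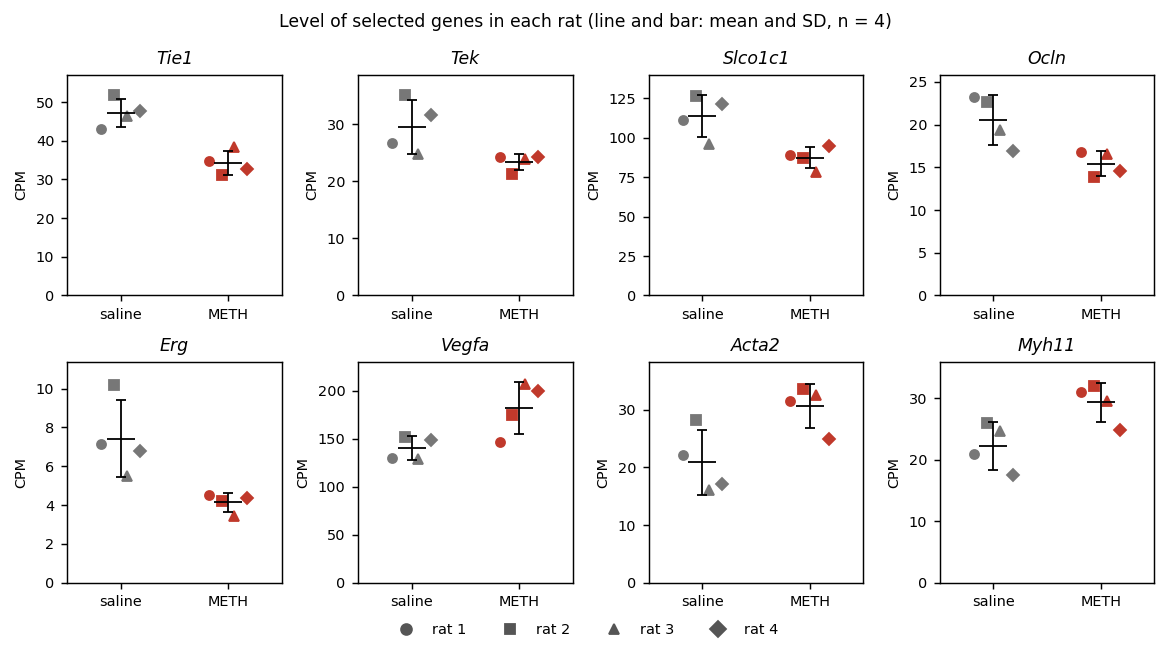
CPM of 8 genes in each rat, saline in grey and METH in red, with a marker shape for the rat number and the mean and SD (n = 4) as a line and bar. Tie1, Tek, Slco1c1, Ocln and Erg show METH rats wholly below saline rats, and Vegfa, Acta2 and Myh11 show higher METH means with some overlap.

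Of the 6 junction genes, 5 overlapped between the groups and Ocln did not. Ocln (occludin), a transmembrane tight junction protein, was at 23.2, 22.6, 19.4 and 16.9 CPM in saline and at 16.8, 13.9, 16.5 and 14.5 CPM in METH rats. The groups did not overlap, narrowly so between saline rat 4 and METH rat 1, and the log2 fold change was -0.41 (SE 0.13, edgeR quasi-likelihood FDR 0.254), or -0.36 without saline rat 2. Cldn5 (claudin-5), the main sealing claudin of brain endothelium, was at 232, 305, 198 and 237 CPM in saline and at 225, 196, 228 and 203 CPM in METH rats. Its log2 fold change of -0.19 (SE 0.11) became -0.06 without saline rat 2. Pecam1, an adhesion molecule of endothelial contacts, overlapped as well, at 34.6, 32.2, 21.1 and 31.4 CPM in saline and 24.4, 28.2, 23.2 and 28.1 CPM in METH rats (log2 fold change -0.20, and -0.16 without saline rat 2). The scaffold Tjp1, the cadherin Cdh5 and the adhesion molecule Esam had log2 fold changes of -0.11, -0.03 and 0.06, and of -0.11, 0.08 and 0.14 without saline rat 2, so that Cdh5 turned sign.

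The transporters differed in sign from gene to gene. Slco1c1, which carries thyroid hormone across the barrier and is also made by astrocytes, was at 111, 127, 95.9 and 121 CPM in saline and at 89.1, 87.2, 78.4 and 94.7 CPM in METH rats. The groups did not overlap, and the log2 fold change was -0.38 (SE 0.10, edgeR quasi-likelihood FDR 0.132), or -0.33 without saline rat 2. The summed astrocyte markers overlapped between groups (4606 to 5674 CPM in saline, 4908 to 5943 CPM in METH rats). Gene by gene, 6 of 10 astrocyte markers were above 0 and 4 below (median 0.11), and none was called. The part of astrocytes in the Slco1c1 difference was not tested. Slco1a2, an older symbol of organic anion transporters that include Slco1a4, was looked at after its values were seen and is not counted among the members. Whether its row holds reads of Slco1a4 is not known, since the annotation used is not given. Slco1a2 was at 64.8, 96.4, 56.8 and 65.6 CPM in saline and at 52.8, 55.1, 51.3 and 48.5 CPM in METH rats, with a log2 fold change of -0.45 (SE 0.14, edgeR quasi-likelihood FDR 0.236). The log2 fold change of Slco1a2 was -0.26 without saline rat 2.

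The efflux pump Abcb1a (P-glycoprotein) and the transferrin receptor Tfrc, which brings iron into the brain, also had lower METH means. Abcb1a was at 62.4, 73.1, 49.8 and 62.1 CPM in saline and at 55.3, 46.5, 39.5 and 52.8 CPM in METH rats (log2 fold change -0.35, SE 0.13, edgeR quasi-likelihood FDR 0.324). Tfrc was at 83.3, 98.6, 82.5 and 68.2 CPM in saline and at 69.4, 65.0, 58.2 and 74.3 CPM in METH rats (log2 fold change -0.32, SE 0.11). Both groups of rats overlapped for each gene, and without saline rat 2 the log2 fold changes were -0.26 and -0.22. By contrast Slc2a1 (GLUT1), the glucose carrier of barrier endothelium, was at 277, 337, 264 and 284 CPM in saline and at 365, 288, 344 and 295 CPM in METH rats. Its log2 fold change of 0.15 (SE 0.10, edgeR quasi-likelihood FDR 0.562) was 0.23 without saline rat 2, and the groups overlapped through that rat alone. Mfsd2a, a lipid carrier linked to low transcytosis at the barrier, was at 33.6, 33.4, 32.8 and 42.3 CPM in saline and at 39.7, 33.8, 38.2 and 39.2 CPM in METH rats, a log2 fold change of 0.09, or 0.06 without saline rat 2. The remaining carriers and pumps, Abcg2, Abcc4, Slc7a5 and Slc16a1, ran from -0.21 to 0.01, and without saline rat 2 from -0.21 to 0.06.

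Of the transcription factors, Erg, an ETS factor that maintains endothelial identity and junction genes, had the most negative log2 fold change of the 42 members. It was at 7.14, 10.2, 5.51 and 6.80 CPM in saline and at 4.50, 4.24, 3.45 and 4.38 CPM in METH rats. Every METH rat lay below every saline rat, at a log2 fold change of -0.84 (SE 0.22, edgeR quasi-likelihood FDR 0.147). Saline rat 2 widened the difference, and without it the log2 fold change was -0.64 (FDR 0.345). Sox17, another factor of endothelial identity, had a difference near 0 and was at 14, 20.2, 18.4 and 17.2 CPM in saline and at 17.8, 17.0, 17.8 and 17.3 CPM in METH rats. Its log2 fold change was 0.00 (SE 0.12), or 0.08 without saline rat 2, and its sign changed between alternatives. Sox18, Foxq1 and Lef1 were at 0.15, -0.25 and -0.17, and without saline rat 2 at 0.28, -0.19 and 0.05, so that Lef1 turned sign.

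The other endothelial markers had lower means in METH rats, and saline rat 2 was the highest of all 8 rats in all 4 of those tested. Itm2a, a membrane protein enriched in brain endothelium, was at 69.98, 96.6, 71.0 and 85.4 CPM in saline and at 71.2, 64.1, 69.1 and 65.0 CPM in METH rats (log2 fold change -0.26, SE 0.10, edgeR quasi-likelihood FDR 0.379, and -0.16 without saline rat 2). Vwf, the von Willebrand clotting factor, was at 72.3, 97.4, 67.8 and 80.1 CPM in saline and at 71.0, 69.9, 73.8 and 68.9 CPM in METH rats. The METH rats were close together and lay near the 2 lowest saline rats, so the Vwf log2 fold change of -0.16 became -0.05 without saline rat 2. Emcn and Cav1 had log2 fold changes of -0.32 and -0.23, which were -0.21 and -0.15 without saline rat 2.

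Among the mural members, pericyte and smooth muscle genes had medians of opposite sign. The 19 other mural genes described below had a median log2 fold change of -0.03, with 11 below 0 and 8 above. Without saline rat 2 that median was 0.15 over 20 genes. The median log2 fold change was -0.26 over 6 pericyte genes, of which 5 were below 0, and 0.40 over 3 smooth muscle genes, of which 3 were above 0. Pdgfrb, the receptor by which pericytes are recruited to vessels, was at 38.1, 44.9, 39.1 and 37.8 CPM in saline and at 30.9, 38.7, 29.5 and 32.9 CPM in METH rats. Its log2 fold change was -0.28 (SE 0.10, edgeR quasi-likelihood FDR 0.356), and only METH rat 2 reached the saline range; without saline rat 2 it was -0.22. Abcc9, a subunit of the potassium channel of pericytes and vascular muscle, was at 18.2, 26.0, 18.5 and 24.1 CPM in saline and at 18.7, 15.4, 12.3 and 16.4 CPM in METH rats (log2 fold change -0.47, SE 0.15, edgeR quasi-likelihood FDR 0.286, and -0.37 without saline rat 2). Rgs5, a regulator of G protein signals used as a pericyte marker, was at 27.8, 61.8, 42.6 and 39.8 CPM in saline and at 43.9, 41.2, 37.95 and 30.5 CPM in METH rats. Its sign rested on saline rat 2, with a log2 fold change of -0.16 (SE 0.19) with that rat and 0.06 without it. Vtn, Notch3 and Anpep were at -0.23, -0.29 and 0.17 with that rat and at -0.09, -0.10 and 0.39 without it. The pericyte median without it was -0.10.

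The contractile genes were higher on average in METH rats. Acta2, the smooth muscle actin, was at 22.1, 28.2, 15.99 and 17.1 CPM in saline and at 31.4, 33.6, 32.5 and 24.9 CPM in METH rats, with means of 20.8 ± 5.57 and 30.6 ± 3.88 CPM (SD, n = 4 each). The overlap came from METH rat 4 and saline rat 2, and the log2 fold change of 0.56 (SE 0.16, edgeR quasi-likelihood FDR 0.224) was 0.74 without saline rat 2 (FDR 0.0655). Myh11, the smooth muscle myosin, was at 20.9, 26.0, 24.7 and 17.5 CPM in saline and at 31.0, 31.9, 29.5 and 24.8 CPM in METH rats. Its log2 fold change was 0.40 (SE 0.13, edgeR quasi-likelihood FDR 0.283), and 0.48 without saline rat 2. Tagln, an actin-binding protein of smooth muscle, was at 31.2, 37.05, 24.2 and 25.8 CPM in saline and at 41.7, 31.8, 45.6 and 29.7 CPM in METH rats (log2 fold change 0.33, SE 0.16, and 0.46 without saline rat 2). METH rats 1 and 3 were the highest of all rats for Tagln, and the other METH rats lay within the saline range.

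**Figure D4:**
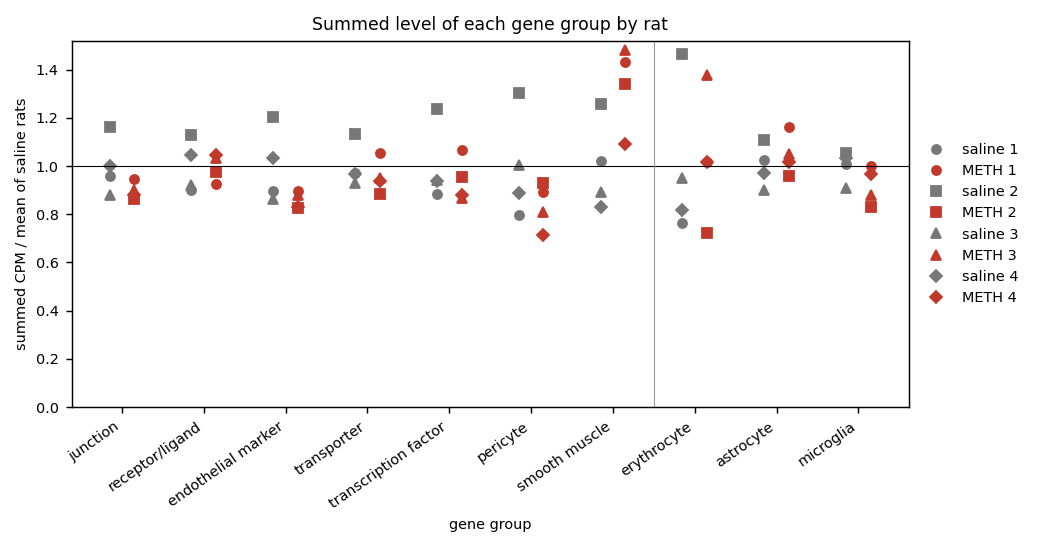
Summed CPM of each gene group in each rat divided by the mean of the saline rats, for the 7 vascular groups and, right of the line, for erythrocyte, astrocyte and microglia markers; saline rats are grey, METH rats red. Saline rat 2 is the highest saline rat in every group shown, and METH rats are above 1 in the smooth muscle group.

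The summed level of all members was 2292 ± 264 CPM in saline and 2165 ± 77.1 CPM in METH rats (SD, n = 4 each), and saline rat 2 alone reached 2674 CPM. Markers of other cell types were set beside these sums. Erythrocyte, microglia, fibroblast, oligodendrocyte and leukocyte sums overlapped between groups. Such sums rest on their most abundant genes, and gene by gene some of these lists also had lower values in METH rats. Of 10 microglia genes 7 were below 0, with a median of -0.18 close to that of the vascular members, and the fractalkine receptor Cx3cr1 was called lower (log2 fold change -0.73, SE 0.14, edgeR quasi-likelihood FDR 0.0408) without overlap of the groups. Of 10 oligodendrocyte genes 8 were below 0 (median -0.11), among them the myelin protein Opalin at -0.52 (FDR 0.0632), also without overlap. The 5 leukocyte genes that could be tested were all below 0 (median -0.38), S100a9 only just (-0.0039). None of them was called (lowest edgeR quasi-likelihood FDR 0.384), and all but Lyz2 had group means at or under 3.47 CPM. The sum of 10 striatal neuron markers was higher in METH rats without overlap (15701 to 19678 CPM, against 14820 to 15666 CPM). Its most abundant gene, Ppp1r1b, had means of 7169 CPM in saline and 8499 CPM in METH rats, with overlap (edgeR quasi-likelihood FDR 0.328). Of the 10 neuron genes 7 were above 0 and 3 below (median 0.15), and none was called. The sum of 10 choroid plexus markers was also higher without overlap (6.95 to 10.6 CPM, against 5.30 to 6.81 CPM). Its defining gene Ttr, however, was at or under 2.03 CPM in every rat and at 0 in 3 of 8. The part of these differences in the vascular results was not tested.

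A level was also computed relative to the median of the 33 endothelial and barrier genes of the same rat. These were all tested members outside the pericyte and smooth muscle groups, so they include the ligands Vegfa and Angpt1. A member that was one of the 33 was left out of its own median, while the shares of all genes used all 33. The scale was added after the values were seen. It centres the endothelial and barrier genes near 0 and lifts the median of all genes by 0.15 (log2) in METH rats. METH rats were above saline rats without overlap in 5 of 42 members (Vegfa, Slc2a1, Sox18, Acta2 and Myh11) and below in 3 (Erg, Slco1c1 and Tek). The shares of all genes on this scale, 8.26% above and 0.383% below, are moved by the centring itself, so the members' counts are a description of genes within the group and are not read against them. Differences were 0.73 for Acta2, 0.56 for Myh11 and 0.53 for Vegfa in the first group. Among the second, Erg was at -0.65, Slco1c1 at -0.23 and Tek at -0.18. Each of these 8 genes had an exact two-sided permutation p of 0.0286, the smallest that 70 label splits allow. Groups without overlap always give this value, so it restates how the 8 genes were picked and is not a further test. This p also cannot survive correction over 42 genes. Tie1 was at -0.32 and Cldn5 at -0.02 on this scale.

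The related vascular pathways were read from 152 further genes in 7 lists, of which 133 were tested. Of these, 1 was called (against 0.516% of all genes): Ptgs2 (cyclooxygenase-2), an inducible prostaglandin enzyme that is listed with endothelial activation and is also made by neurons, at 5.62 ± 0.392 CPM in saline and 11.3 ± 0.938 CPM in METH rats (SD, n = 4 each; log2 fold change 1.00, SE 0.15, edgeR quasi-likelihood FDR 0.00549). It was at 1.03 without saline rat 2 (FDR 0.0167). At an unadjusted p below 0.05, 17 of the 133 genes were lower (12.8%, against 4.88% of all genes) and 8 higher (6.02%, against 6.26%), with a median log2 fold change of -0.03. Groups did not overlap in 8 with METH lower (6.02%, against 2.65%) and 5 with METH higher (3.76%, against 3.75%), so the higher shares were those of all genes. Without saline rat 2, 9 of 134 genes were lower and 9 higher at an unadjusted p below 0.05 (6.72% each, against 4.57% and 5.77%), and the median turned to 0.03.

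The lists are small, and their counts at that level stand beside the 4.88% lower and 6.26% higher of all genes. Other junction genes had 2 of 14 lower, F11r (junctional adhesion molecule A, log2 fold change -0.69) and Marveld2 (tricellulin, -0.77). Of 13 genes of the Wnt pathway that builds the barrier, 1 was lower, the receptor Fzd6 (-0.70). Among 33 vascular signalling genes, 6 were lower and 2 higher, the lowest p being those of Smad7 (an inhibitor of TGF-beta signals, 0.36, FDR 0.0869), Tgfbr1 (a TGF-beta receptor, -0.47) and Jag1 (a Notch ligand, -0.43). Other barrier transporters had 5 of 22 lower and 1 higher, with Slco2b1 (-0.44), the insulin receptor Insr (-0.41) and Abcc5 (0.26) leading by p. Elk3 (-0.40) and Fli1 (-0.73), ETS factors like Erg, were the 2 of 19 other endothelial transcription factors at that level. Of 19 other mural genes, 11 were below 0 and 8 above (median -0.03). At an unadjusted p below 0.05, 4 of them were higher and 1 was lower. The higher ones included Pdlim3 (1.01, FDR 0.0596) and Lmod1 (0.70, FDR 0.0828), both proteins of contractile muscle. Without saline rat 2, the counts were 2 of 14 lower for junction genes, 1 of 13 for the Wnt pathway, 3 lower and 2 higher of 33 for signalling, 3 of 22 lower for transporters, 0 of 19 for transcription factors and 5 of 20 higher for mural genes, with none lower. Fli1 was then at -0.49, Fzd6 at -0.57, Pdlim3 at 0.95 and Lmod1 at 0.70.
Pdlim3 was at 8.40, 7.95, 6.57 and 12.9 CPM in saline and at 18.6, 22.9, 13.2 and 17.4 CPM in METH rats. Lmod1 was at 16.7, 16.5, 18.4 and 15.1 CPM in saline and at 29.8, 18.5, 33.8 and 26.8 CPM in METH rats. In both genes each METH rat was above each saline rat, but narrowly so. The closest were METH rat 3 and saline rat 4 for Pdlim3 (13.2 and 12.9 CPM), and METH rat 2 and saline rat 3 for Lmod1 (18.5 and 18.4 CPM).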

How the data were processed

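The samples were poly(A)-selected mRNA libraries from the striatum of 8 rats. The authors used Cutadapt 1.18 for trimming, STAR 2.7.0e for alignment to rn6, and counted reads per gene with featureCounts (Subread 1.6.4), as the submitters' processing notes give them, and deposited raw counts with 1 column per rat, unpooled. Which annotation was used, and how strand and multi-mapping reads were treated, is not given in the sources used here, so values of genes that have close paralogs or that overlap others are uncertain. Columns were assigned to rats by the group and number in their names.

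From the deposited counts, genes were filtered with filterByExpr (minimum count 10), scaled by TMM (factors 0.956 to 1.018) and fitted in edgeR 4.0.16 (R 4.3.3, quasi-likelihood F-test). CPM are counts divided by the TMM-scaled library size, and log2 CPM used a prior count of 2. They are not corrected for gene length, so levels are compared between rats only. Standard errors (SE) were obtained as the absolute log2 fold change over the root of F. Single values were also compared by exact two-sided permutation over the 70 label splits of 8 rats. At the depth given, 3 counts are the smallest number taken as detected, for counting error only. Rats of a group differed by more than counting error (chi-square over its degrees of freedom, 10.4 to 28.6), and each was a replicate. The fit was tested on simulated counts with known changes.

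The 45 members and all lists were chosen with earlier results of these data known. Named with every rat's value were members called, at an unadjusted p below 0.05 or without overlap, the 3 highest and 3 lowest log2 fold changes, and a defining gene of each role; related genes were named when called or among the 3 lowest p of a list. Tagln, Slco1a2, Sox18, Ttr and other genes given by value alone were named after their values were seen. The scale relative to endothelial and barrier genes was added after the values were seen.

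Alternatives were the exact and likelihood ratio tests, DESeq2 1.42.0, limma-voom (limma 3.58.1), RLE, upper-quartile and total-count scaling, other filters and call thresholds, robust dispersion, the rat number as a block and each rat left out. Promoters are from RefSeq (GRCr8), and since the files use rn6 no other coordinates or GC correction were used. Small RNA sequencing, qRT-PCR and behaviour were not analysed here.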

Additional observations from a re-analysis of the deposited data

Results flagged for a closer look

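Within a group of 4 rats, a value is given here when the gap between the highest or lowest rat and the next, divided by the range of the group, passed Dixon's critical value at 95%. By chance this occurs in about 1 in 20 groups, and it occurred in 7 of 86 groups of member genes and 2 of 46 groups of summed lists.

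In METH rat 2, Tek was the lowest of its group (ratio 0.886) and Nos3, the endothelial nitric oxide synthase, the highest (0.92). In METH rat 1, Sox18 was the highest (0.975), as was the summed level of the fibroblast markers (0.869), and Ly6c had the only read of its group (1). Anpep, an aminopeptidase of pericytes, was lowest in METH rat 4 (0.874). In saline rat 4, the efflux pump Abcg2 was lowest (0.839) and the lipid carrier Mfsd2a highest (0.911). The summed endothelial transcription factors were highest in saline rat 2 (0.832), the rat with the highest level in most members.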

How the results depend on the processing

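No member was called by the quasi-likelihood test, but the exact test, the likelihood ratio test and DESeq2 called 3 each, all lower, and limma-voom, upper-quartile scaling, total counts, every gene with at least 1 count, the log2 CPM threshold before the test and robust dispersion called 1 each, lower. Leaving out 1 rat gave 0 to 1 called, 0 to 1 of them lower and 0 higher. Members at an unadjusted p below 0.05 then ran from 5 to 17 lower (5 without saline rat 2, 17 without saline rat 3) and 3 to 5 higher, and 26 to 33 were below 0. Of all genes, 168, 170 and 191 were called by those 3 tests, with 130, 131 and 141 higher and 38, 39 and 50 lower, and 13 lower with every gene of at least 1 count. Leaving out 1 rat gave 37 to 70 called, 35 to 66 higher and 2 to 9 lower. Related genes called were 5 with each of the 3 tests, of which 1 was lower, 2 with every gene of at least 1 count, and 1 to 2 with a rat left out, 0 to 1 of them lower. The cause of these shifts was not tested. The median log2 fold change ran from -0.24 to -0.10 for members with a rat left out, from -0.26 to -0.12 for endothelial and barrier genes, from -0.31 to -0.10 for pericyte genes, from 0.30 to 0.48 for smooth muscle genes and from -0.01 to -0.00 for all genes.

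Same-numbered rats are different animals whose deviations did not run together (correlations 0.01, -0.19, -0.20 and 0.04), and 2 of 8 rats correlated best with their own number. A fit with the rat number as a replicate block called 37 genes (35 higher, 2 lower), with 0 members and 0 related genes, and Ptgs2 moved to an FDR of 0.0554. Sox17, at 0.00, turned sign to 0.0069 with limma-voom, 0.0017 with every gene of at least 1 count, 1.75e-05 with the log2 CPM threshold before the test, 0.0114 with the block and 0.18 on the endothelial scale (shift 0.15), and ran from -0.0907 to 0.0777 with a rat left out. Rgs5 ran from -0.32 to 0.063 with a rat left out (the latter without saline rat 2). On the endothelial scale Rgs5 was 0.0353 and Vwf 0.00396, but that scale lifts all genes by 0.15, and both lie below this shift. No other of the 22 members named by the rule turned sign under any alternative run. Of the other members Cdh5, Lef1 and Angpt1 turned to 0.08, 0.05 and 0.14 without saline rat 2.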

Other observations

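Among the genes listed for endothelial activation, the adhesion receptors Sele and Selp and the chemokines Ccl2 and Cxcl1 were at or under 1.06 CPM in every rat, and Icam1 was between 3.72 and 4.75 CPM in saline and between 4.01 and 6.22 CPM in METH rats. Vcam1 was between 30.3 and 42.7 CPM in saline and between 31.1 and 39.9 CPM in METH rats. The summed activation list ran from 175 to 217 CPM in saline and from 197 to 221 CPM in METH rats, so that the groups overlapped. These genes were named after their values were seen.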
